A study of Mus musculus with 6 samples.

Results

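Teneurins and latrophilins are cell-surface proteins that bind each other across cell contacts, and the 7 genes described here are those of the mouse teneurins (Tenm1, Tenm2, Tenm3 and Tenm4) and of the latrophilins (Adgrl1, Adgrl2 and Adgrl3). They were taken by name from the 54146 genes counted in each library, and the family was chosen by the read counts of its members in knockout and wild-type cells, Tenm4 being among the largest falls. RNA came from NIH/3T3, a fibroblast line established from embryos of Swiss albino mice according to the labels, in 3 groups of 2 libraries: clone 1 and clone 2 of Ki-67 knockout cells (Mki67-/-) and wild-type (WT) cells, all grown in serum-containing medium. Each knockout group is 1 clone, the sources used here do not state how the clones were made or which part of Mki67 was edited, and the extraction text of the labels names 4T1, a mammary tumour line, where titles, sources and tissue labels name NIH/3T3. The labels do not say whether replicates came from separate cultures, so the errors and p-values below measure only the spread between these libraries, which may be technical.

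Teneurins are large transmembrane glycoproteins with a long extracellular part that binds latrophilins and other teneurins on neighbouring cells. Latrophilins are adhesion G protein-coupled receptors, named for the spider toxin latrotoxin that binds Adgrl1. They also bind the FLRT proteins, which in turn bind UNC5 receptors. Both families are best known from synapse formation and axon guidance in the brain, and Tenm4 is also known from mesenchymal tissue and from myelination.

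Tenm4 and Adgrl1 were the 2 members with a level above 3 CPM in any library (CPM, a gene's count relative to the library total after TMM normalisation), so their promoter windows are shown first. Each window is RefSeq's (GRCm38.p6), runs from 250 bases before to 50 after an annotated start and is written 5′ to 3′ on the gene's strand, with CpG dinucleotides in capitals.
Tenm4 first start, chr7:96170994-96171293, plus strand: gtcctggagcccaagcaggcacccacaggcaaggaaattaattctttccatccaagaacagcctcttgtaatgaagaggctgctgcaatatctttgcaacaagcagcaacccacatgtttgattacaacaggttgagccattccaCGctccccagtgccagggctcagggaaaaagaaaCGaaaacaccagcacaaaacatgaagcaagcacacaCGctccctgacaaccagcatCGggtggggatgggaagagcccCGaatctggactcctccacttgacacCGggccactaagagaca
Tenm4 downstream start, chr7:96211421-96211720, plus strand: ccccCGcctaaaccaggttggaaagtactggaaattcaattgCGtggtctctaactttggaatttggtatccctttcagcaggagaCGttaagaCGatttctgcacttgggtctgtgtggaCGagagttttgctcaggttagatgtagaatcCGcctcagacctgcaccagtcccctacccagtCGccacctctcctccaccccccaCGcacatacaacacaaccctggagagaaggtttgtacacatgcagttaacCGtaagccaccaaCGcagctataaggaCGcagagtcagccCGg
Adgrl1, chr8:83899848-83900147, plus strand: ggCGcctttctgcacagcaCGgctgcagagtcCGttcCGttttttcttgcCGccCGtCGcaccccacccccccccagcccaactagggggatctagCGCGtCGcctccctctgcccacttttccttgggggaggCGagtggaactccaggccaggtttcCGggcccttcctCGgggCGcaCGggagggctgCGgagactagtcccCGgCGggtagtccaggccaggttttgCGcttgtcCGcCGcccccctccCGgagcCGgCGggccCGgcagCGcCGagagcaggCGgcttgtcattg

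The windows of Tenm4 hold 6 and 12 CpG dinucleotides at a GC content of 52.0% and 52.3%, and that of Adgrl1 holds 28 at 70.0%. Among all 32851 promoter windows of the same length the median was 7 CpG dinucleotides; 43.6% and 60.4% of them hold fewer than the Tenm4 windows, and 85.8% fewer than the Adgrl1 window. The letters of a GC box (GGGCGG, either strand) occur 2 times in the Adgrl1 window, against none in either Tenm4 window, and in 35.7% of all windows. The letters TATAAA (either strand) are in none of these 3 windows and in 13.6% of all windows. RefSeq windows were found for 7 of the 7 genes, 10 in all. Adgrl3, described below, has 3, with 40, 21 and 20 CpG dinucleotides. These counts are descriptions of the letters, since nothing measured here bears on binding or methylation at the starts.

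The deepest library, clone 1 replicate 1, held 19678782 gene counts and the shallowest, WT replicate 1, held 3873249, so that 3 counts equal 0.151 CPM and 0.814 CPM in them. Mki67, the targeted gene, had 4.24 and 4.58 CPM in clone 1, 4.32 and 7.69 CPM in clone 2, against 49.1 and 55.1 CPM in WT (log2 fold change of the knockout mean −3.35 ± 0.18, standard error (SE); edgeR quasi-likelihood adjusted p = 1.12e-08). Of the 10 fibroblast markers, 9 passed the filter on low counts and Fap had 0 counts, with a summed level of 8610 to 9299.5 CPM in clone 1, 9534 to 9685 CPM in clone 2, and 10339.8 to 11453 CPM in WT. The 10 neuronal markers summed to 2.76 to 2.93 CPM in clone 1 and 2.54 to 2.65 CPM in clone 2, against 0.814 to 1.80 CPM in WT, with Rbfox3, Elavl4 and Nefl at 0 counts and 0 called. The 10 epithelial markers summed to at most 1.26 CPM in any library, with Epcam, Krt19, Cldn7 and Esrp1 at 0.

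Among the teneurins, the ligands of this system, NIH/3T3 cells had transcripts of Tenm4 and next to none of the others. Tenm1 (chromosome X) had 0 counts in all 6 libraries, which over their summed depth allows a level of up to 0.0365 CPM. Tenm2 (chromosome 11) had 1 count in all, in clone 2 replicate 2. Tenm3 (chromosome 8) had 3 counts, 1 in clone 1 replicate 1 and 2 in clone 2 replicate 2. For these 3 genes no difference between groups was detectable at this depth. Such limits cover counting error only.

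Tenm4 (ENSMUSG00000048078, GRCm38 chromosome 7, 96171246 to 96911093, plus strand) was the member that set the choice of this gene family. Its counts lay between 44 and 119 in the knockout libraries and reached 698 in WT. Scaled to depth it had 3.03 and 2.76 CPM in clone 1, 7.34 and 4.62 CPM in clone 2, against 48.3 and 62.9 CPM in WT. Each of the 4 knockout libraries was therefore below both WT libraries, and every clone 2 library was above every clone 1 library. The means were 2.90 ± 0.187 CPM in clone 1 and 5.98 ± 1.92 CPM in clone 2, against 55.6 ± 10.3 CPM in WT (SD, n = 2 each). The log2 fold change was −4.27 ± 0.23 (SE) in clone 1, −3.23 ± 0.22 in clone 2 and −3.75 ± 0.18 for the mean of both clones. In a bulk sample, fewer cells with the transcript and less of it per cell cannot be told apart.

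These differences from WT are given as a description with no test, because they chose the genes. Among 8821 protein-coding genes whose log2 CPM averaged 3 or more, Tenm4 had the 8th lowest fold change in the knockout mean, between Brinp3 at −4.21 and Mki67 at −3.35. It was the 6th lowest in clone 1 and the 13th lowest in clone 2. Over all 13120 genes tested it was the 120th lowest in the knockout mean, the 96th in clone 1 and the 157th in clone 2. Transcripts of Tenm4 were counted in every knockout library. Reads on the opposite strand of its exons came to at most 6 counts in a library. Of the 11 other genes annotated within its span, 9 lie on the opposite strand, and none had more than 6 counts in a library. The host gene of the microRNA miR-708 is Tenm4, and the annotated Mir708 gene had 0 counts in all 6 libraries.

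The comparison of the knockout clones with each other asks whether both clones carry the same change, while the stated ground for choosing the genes was the fall against WT. Tenm4 was higher in clone 2, where its libraries had 7.34 and 4.62 CPM, against 3.03 and 2.76 CPM in clone 1. On the log2 scale the difference was 1.04 ± 0.25 (SE; edgeR quasi-likelihood, adjusted p = 0.0340 over 13120 genes). Of the 3 members tested, 2 were called higher in clone 2 and 0 lower, where 3.54% of all genes tested were called, 1.18% higher and 2.36% lower. Nothing is read from this count, since the members were chosen with earlier results of these data known, the clone values among them. The call for Tenm4 was lost with unstranded counts (0.96, adjusted p = 0.0671) and when 1 of 3 libraries was left out. With clone 1 replicate 1 left out it was 1.10 (adjusted p = 0.139), with clone 1 replicate 2 left out 0.98 (adjusted p = 0.133), and 0.66 without clone 2 replicate 1 (adjusted p = 0.424). Its adjusted p ranged from 4.72e-05 to 0.424 over 12 alternative settings, all of which kept the direction.

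**Figure D1:**
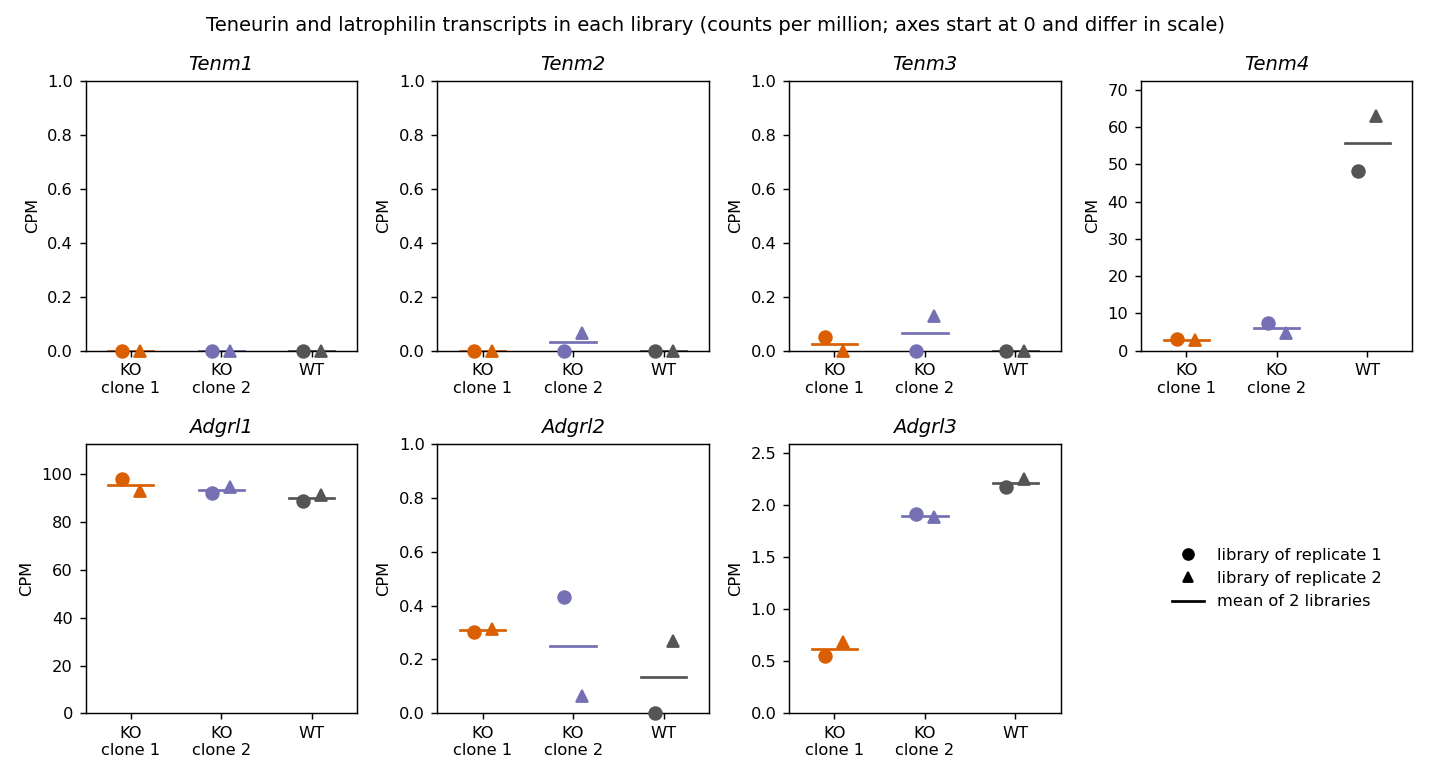
Transcript level of each teneurin and latrophilin gene in CPM (vertical axes, linear, starting at 0 and differing in scale) in the libraries of KO clone 1, KO clone 2 and WT; symbols are libraries and horizontal lines are means of 2 libraries. Tenm4 lies between 2.76 and 7.34 CPM in the knockout libraries and at 48.3 and 62.9 CPM in WT, Adgrl1 lies at 88.7 to 98.1 CPM in all 6 libraries, and Adgrl3 is low in clone 1.

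Among the latrophilins, the receptors, Adgrl1 had nearly all of the counts. It held 97.5% to 99.1% of latrophilin counts in the knockout libraries and 97.3% to 97.6% in WT. Adgrl1 (ENSMUSG00000013033, chromosome 8, 83900105 to 83941954, plus strand) had 98.1 and 93.2 CPM in clone 1, 92.4 and 94.9 CPM in clone 2, against 88.7 and 91.5 CPM in WT. The 6 libraries thus lie close together, with the knockout libraries above the WT libraries by a few CPM. The log2 fold change of the knockout mean was 0.07 ± 0.11 (SE), less than its error, and stayed between 0.05 and 0.12 under all 12 alternatives. Between clones it was −0.03 ± 0.12 (edgeR quasi-likelihood, adjusted p = 0.948).

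Adgrl3 (ENSMUSG00000037605, chromosome 5, 81020138 to 81825133, plus strand) was present at a low level. It had 11 and 11 counts in clone 1, 31 and 29 counts in clone 2, and 8 and 25 counts in WT. Scaled to depth this was 0.555 and 0.691 CPM in clone 1, 1.91 and 1.89 CPM in clone 2, against 2.17 and 2.25 CPM in WT. The clone 1 libraries were below all 4 others, and the clone 2 libraries were just below both WT libraries. The log2 fold change against WT was −1.84 ± 0.37 (SE) in clone 1 and −0.23 ± 0.32 in clone 2, given with no test. The difference between clones was 1.61 ± 0.33 (clone 2 over clone 1; edgeR quasi-likelihood, adjusted p = 0.0131). The call rests on few counts. It was lost in DESeq2 (1.61, adjusted p = 0.142) and when any single knockout library was left out: with replicate 1 of clone 1 out it was 1.43 (adjusted p = 0.184), with replicate 2 of clone 1 out 1.76 (adjusted p = 0.0654), with replicate 1 of clone 2 out 1.59 (adjusted p = 0.115), and with replicate 2 of clone 2 out 1.61 (adjusted p = 0.122).

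Adgrl2 (chromosome 3) had 6 and 5 counts in clone 1, 7 and 1 counts in clone 2, and 0 and 3 counts in WT. The groups overlap, and the gene did not pass the filter on low counts. That filter passed 3 of the 7 members, Tenm4, Adgrl1 and Adgrl3. Of these 3, 0 were called higher and 2 lower in the knockout mean, where 34.8% of all genes tested were called and 18.2% called lower. In clone 1 it was again 2 of 3, with 31.7% of all genes called, 15.2% higher and 16.5% lower. In clone 2 it was 1 of 3, with 27.4% called and 14.5% called lower. Nothing is read from these counts, since these comparisons chose the genes. The comparisons with WT also share its 2 libraries.

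Levels of different genes were set side by side per kilobase of annotated exon, with the exons of all annotated transcripts of a gene merged. The merged lengths were 21021 bases for Tenm4, 17750 for Adgrl3 and 8587 for Adgrl1. The transcripts in these cells may be shorter by amounts that differ between genes, so ratios between genes are approximate. On this scale the receptor Adgrl1 stood above the ligand Tenm4 in all 3 groups. Adgrl1 had 11.1 ± 0.409 CPM per kb in clone 1, 10.9 ± 0.203 in clone 2 and 10.5 ± 0.230 in WT (SD, n = 2 each). Tenm4 had 0.138 ± 0.00891 CPM per kb in clone 1, 0.285 ± 0.0913 in clone 2 and 2.64 ± 0.490 in WT. Adgrl3 came lowest of the tested members, with 0.0351 ± 0.00540, 0.107 ± 0.000909 and 0.125 ± 0.00324 CPM per kb in the same order of groups. The ratio of Adgrl1 to Tenm4 on this scale was 79.4 and 82.6 in the clone 1 libraries, 30.8 and 50.2 in clone 2, and 4.50 and 3.56 in WT.

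Teneurins and latrophilins have other ligands and co-receptors, and 11 such genes were listed for both families together. Among them Unc5b, a netrin receptor that binds FLRT proteins, was the one called in the knockout mean. Unc5b had 313 and 329 CPM in clone 1, 161 and 169 CPM in clone 2, against 99.6 and 111 CPM in WT. The groups did not overlap, and clone 1 stood highest. Its log2 fold change in the knockout mean was 1.12 ± 0.12 (SE; edgeR quasi-likelihood, adjusted p = 7.09e-06), and it kept its call under all 12 alternatives. The rise was smaller in clone 2, by −0.96 ± 0.12 against clone 1 (adjusted p = 0.000349, and called under the same 12 alternatives). Of the 11 genes, 4 passed the filter; 1 rose, 0 fell and 3 were not called, against 16.6% of all genes called higher. Their median log2 fold change was −0.26, beside 0.00 over all genes tested.

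The other 3 genes that passed were not called in the knockout mean. Flrt2, an FLRT ligand of latrophilins, had 28.3 and 38.6 CPM in clone 1, 23.4 and 20.6 CPM in clone 2, against 36.4 and 29.9 CPM in WT. Its log2 fold change was −0.27 ± 0.16 (edgeR quasi-likelihood, adjusted p = 0.214), and in clone 2 against WT it was called lower (−0.57 ± 0.18, adjusted p = 0.0344). Clone 2 differed from clone 1 by −0.60 ± 0.17 (adjusted p = 0.0826), which gained a call in 5 of 12 alternatives. Dag1, the dystroglycan gene, had 154 and 147 CPM in clone 1, 202 and 180.5 CPM in clone 2, against 183 and 218 CPM in WT, a change of −0.25 ± 0.11 (adjusted p = 0.112). It was called lower in clone 1 against WT (−0.42 ± 0.13, adjusted p = 0.0280), and in the knockout mean without WT replicate 1 (−0.36, adjusted p = 0.0295). Cntn6, a contactin gene, was at most 0.991 CPM in any library. Flrt1, Flrt3, Unc5c and Nrxn2 had at most 16 counts in any library, the neurexin gene Nrxn3 and the netrin receptor gene Unc5d had 1 count each in all libraries together, and Unc5a had 0.

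Among 14 intracellular partners and G protein alpha subunits, 10 passed the filter; 2 rose, 2 fell and 6 were not called in the knockout mean (median log2 fold change −0.01, beside 0.00 over all genes tested). Over all genes tested 34.8% were called, 16.6% higher and 18.2% lower. With WT replicate 1, with clone 1 replicate 2 or with clone 2 replicate 1 left out, the count called was 2 in place of 4. Fyn, a Src family kinase that acts with focal adhesion kinase, fell to 43.3 and 45.0 CPM in clone 1 and to 36.0 and 34.6 CPM in clone 2, against 56.7 and 69.4 CPM in WT. Its log2 fold change was −0.69 ± 0.12 (SE; edgeR quasi-likelihood, adjusted p = 0.000733), called under all 12 alternatives. Gnaq, the gene of the Gq alpha subunit, rose by 0.66 ± 0.19 (adjusted p = 0.0138), also called under all 12, with a value of 0.48 without WT replicate 1 and 1.03 without WT replicate 2. It had 19.4 and 26.7 CPM in clone 1, 21.5 and 23.3 CPM in clone 2, against 11.1 and 16.2 CPM in WT. Ptk2, the gene of focal adhesion kinase, was not called in the knockout mean (0.25 ± 0.12, edgeR quasi-likelihood, adjusted p = 0.115). Against WT it was called higher in clone 1 (0.39 ± 0.14, adjusted p = 0.0444) and not called in clone 2. Gna11 was not called in the knockout mean (−0.30 ± 0.11, adjusted p = 0.0548). Against WT it was called lower in clone 1 (−0.38 ± 0.13, adjusted p = 0.0377) and not called in clone 2.

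Both calls among the inhibitory alpha subunits were close to the threshold. Gnai3 rose by 0.51 ± 0.17 (edgeR quasi-likelihood, adjusted p = 0.0323), a call lost when WT replicate 1 was left out (0.27, adjusted p = 0.139), when clone 1 replicate 2 was (0.37, adjusted p = 0.106) and in the fit without clone 2 replicate 1 (0.45, adjusted p = 0.0845). Without WT replicate 2 its change was 0.87. Gnai2 fell by 0.31 ± 0.11 (adjusted p = 0.0438) and lost its call in 7 of 12 alternatives, over which its adjusted p ran from 0.0164 to 0.258. They were the unfiltered and the unstranded counts and the fits without WT replicate 1 or without any one of the 4 knockout libraries.

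**Figure D2:**
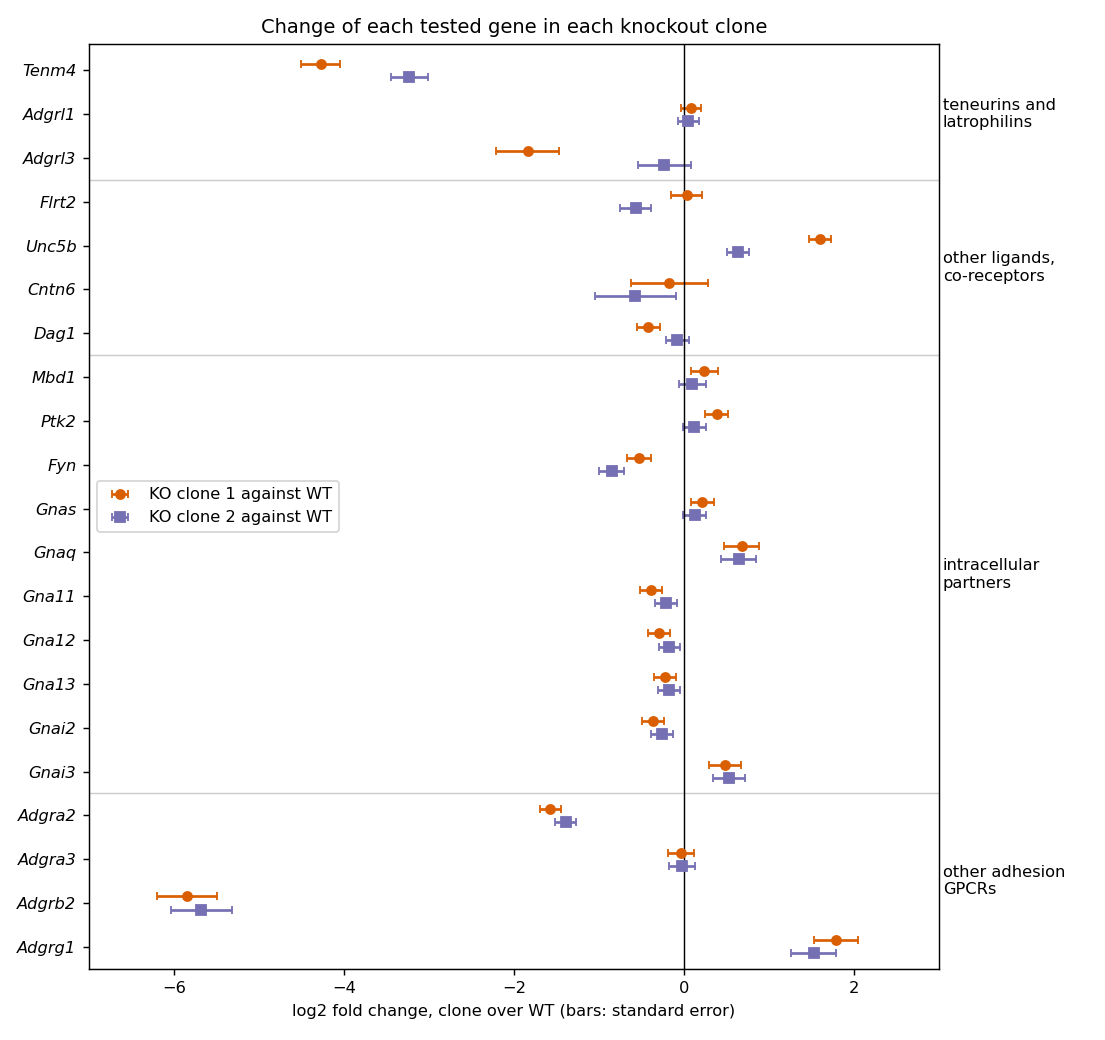
Log2 fold change (horizontal axis; symbols with standard error) of each tested gene in KO clone 1 and KO clone 2 over WT, in 4 groups of genes; Adgra1, which had 0 counts in WT, is left out. Tenm4 lies at −4.27 and −3.23 and Adgrl1 near 0 in both clones, while Adgrl3 and Unc5b stand further from 0 in clone 1 than in clone 2.

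Of 27 adhesion G protein-coupled receptors outside the latrophilins listed here, 5 passed the filter; 2 were called higher, 2 lower and 1 was not called, where 34.8% of all genes tested were called, 16.6% higher and 18.2% lower. Their median log2 fold change was −0.02, the same with Adgra1 at its bound. Adgra1 passed the filter through its knockout libraries alone and Adgrb2 through its WT libraries alone, so the direction of each call follows from the filter. Adgrb2, a brain angiogenesis inhibitor family receptor, had 3 counts in each of the 4 knockout libraries, against 34 and 119 counts in WT, a change of −5.76 ± 0.28 (SE; edgeR quasi-likelihood, adjusted p = 6.20e-09). Adgra2, also called Gpr124, a receptor known from brain vessels, fell to 44.0 and 39.8 CPM in clone 1 and to 46.1 and 48.8 CPM in clone 2, against 124.6 and 124.5 CPM in WT. The change was −1.48 ± 0.11 (adjusted p = 2.28e-07). Adgrg1, also called Gpr56, rose by 1.66 ± 0.25 (adjusted p = 0.000187), with 9.94 and 8.73 CPM in clone 1, 7.34 and 8.21 CPM in clone 2, against 3.53 and 2.34 CPM in WT. Adgra1 had 22 and 12 counts in clone 1, 5 and 7 counts in clone 2 and 0 in WT. Pooled over the 4 knockout libraries it was at least 3.37-fold higher, against a floor of 3 counts over both WT libraries. The bound is smaller for clone 2 alone, which averaged 0.382 CPM, against 0.932 CPM in clone 1 and a WT floor of 0.203 CPM.

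Tenm4 and Mki67 lie on the same chromosome, 39.5 Mb apart, so the genes around Tenm4 were set beside it. Over the 1001 genes tested on chromosome 7 the median log2 fold change of the knockout mean was −0.26, the third lowest of 20 chromosomes, and 36.5% were called lower, against 18.2% of all genes tested. The medians were −0.27 in clone 1 and −0.26 in clone 2. These medians cover the whole chromosome, and the stretch between Tenm4 and Mki67 holds genes called in both directions. Genes on the chromosomes of Adgrl1 and Adgrl3 had medians of −0.02 (chromosome 8) and 0.10 (chromosome 5). Within 2 Mb of the Tenm4 start there are 46 other annotated genes, of which 14 were tested, all downstream, the closest at 780.3 kb. Their median was −0.36, with a range of −1.50 to 0.37, so that Tenm4 at −3.75 lies outside it.

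On chromosome 7, 36.5% of tested genes were called lower and 8.8% higher, against 18.2% and 16.6% of all genes tested. Of these 14 neighbours, 0 were called higher and 6 lower. The lowest was Aqp11, a water channel gene, at −1.50 ± 0.34 (SE; edgeR quasi-likelihood, adjusted p = 0.00436), and the others were Gab2, a signalling adaptor gene (−0.77 ± 0.19), Clns1a (−0.68 ± 0.11), Ndufc2, a subunit gene of respiratory complex I (−0.57 ± 0.12), the kinase gene Pak1 (−0.43 ± 0.12) and the Integrator subunit gene Ints4 (−0.36 ± 0.13). Without WT replicate 2 the count was 2, with Gab2 at −0.18 (adjusted p = 0.627) and Aqp11 at −0.97 (adjusted p = 0.266). The call of Pak1 was lost without WT replicate 2 (−0.32, adjusted p = 0.167) and in the fit without clone 2 replicate 2 (−0.41, adjusted p = 0.0598). That of Ints4 was lost in 6 of 12 alternatives, with adjusted p up to 0.282 when WT replicate 2 was left out. The part of the lower chromosome median in the level of Tenm4 was not tested.

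**Figure D3:**
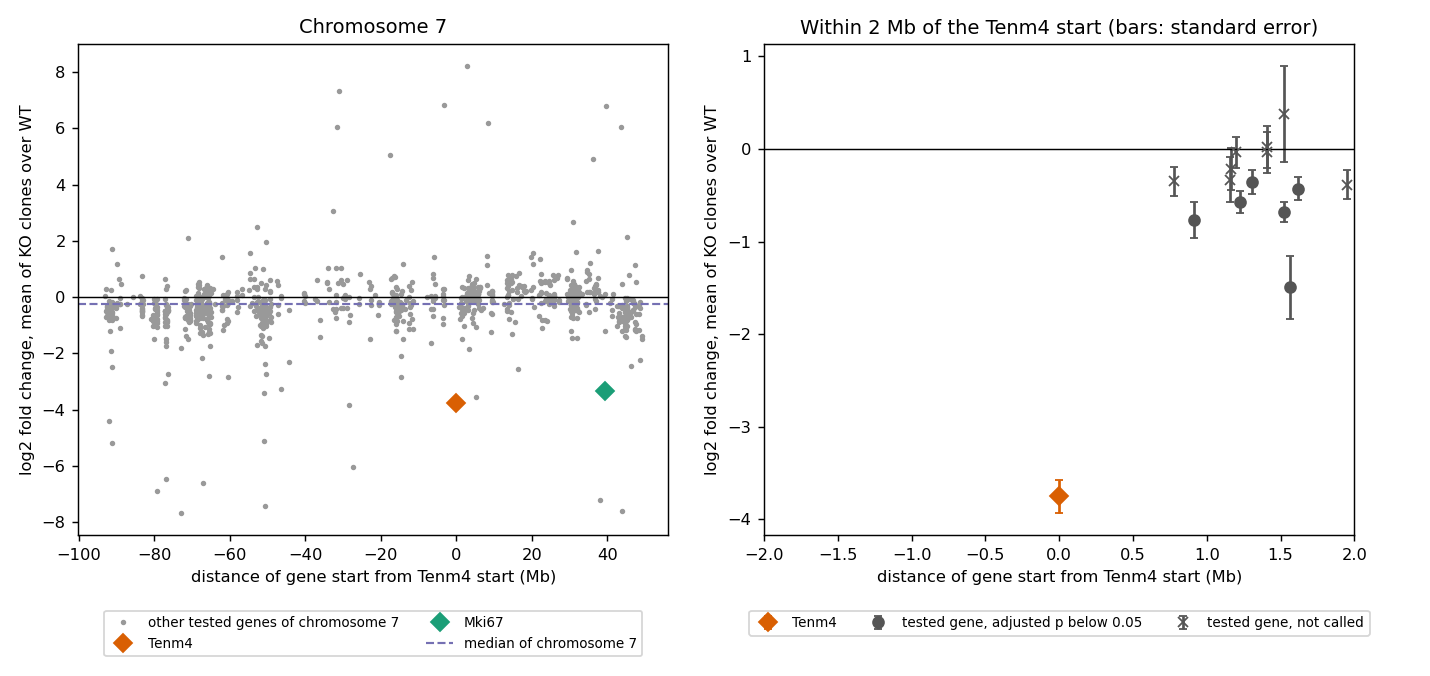
Log2 fold change of the mean of both KO clones over WT (vertical axes) against the distance of each gene's start from the start of Tenm4 (horizontal axes, Mb) for the tested genes of chromosome 7 (left) and for those within 2 Mb (right, with standard errors). Tenm4 at −3.75 lies below its 14 tested neighbours, which range from −1.50 to 0.37; fitted values of genes with 0 counts in a group are not bounds.

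Marker genes of other cell types moved with the groups as well. The 6 endothelial markers summed to 12.0 to 15.5 CPM in clone 1 and 20.3 to 22.5 CPM in clone 2, against 38.5 to 44.9 CPM in WT; 2 of them were called lower, Emcn and Cdh5, and Kdr had 0 counts. The 6 immune markers summed to 33.1 to 36.1 CPM in clone 1 and 31.0 to 35.2 CPM in clone 2, against 19.5 to 25.2 CPM in WT, with Adgre1 and Cd3e at 0 counts. Of these, Csf1r was called higher, with 17.8 and 17.3 CPM in clone 1 and with 19.2 and 22.5 CPM in clone 2, against 5.43 and 3.69 CPM in WT. Cd68 was lower in value and not called (log2 fold change −0.23, edgeR quasi-likelihood, adjusted p = 0.288), and Ptprc had 0 counts in the knockout libraries, against 1 and 4 counts in WT. The 6 skeletal muscle markers summed to 41.9 to 42.4 CPM in clone 1 and 17.6 to 18.2 CPM in clone 2, against 8.95 to 9.91 CPM in WT, with Des and Ttn called higher and Myod1 and Myog at 0 counts. Ttn had 0 and 6 counts in WT and passed the filter through its knockout libraries alone. Acta1 was called in opposite directions in the clones, with a log2 fold change of 2.82 ± 0.26 in clone 1 (adjusted p = 3.25e-06) and −2.56 ± 0.45 in clone 2 (adjusted p = 0.00105), and a difference of −5.38 ± 0.30 between clone 2 and clone 1 (adjusted p = 1.72e-07). Of the 9 fibroblast markers tested, 2 were called higher (Col1a1 and P4hb) and 4 lower (Col3a1, Vim, Pdgfra and Thy1). Beside the calls in these marker lists, 34.8% of all genes tested were called in the knockout mean, 16.6% higher and 18.2% lower. The part of the marker genes in the changes of Tenm4 and its partners was not tested.

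The genes most like Tenm4 across the 6 libraries were found by Pearson's correlation of log2 CPM among 8820 other protein-coding genes of the same abundance range. They were Il1rl1, the receptor gene for interleukin 33 (r = 0.999), Mat2a, a methionine adenosyltransferase gene (0.998), Fam110c (0.998), the corepressor gene Tle1 (0.998) and the phosphofructokinase gene Pfkp (0.997). Their log2 fold changes in the knockout mean were −2.14, −0.34, −0.68, −0.39 and −1.02 in that order, smaller than that of Tenm4. In all, 351 genes had r above 0.95, and the 6 points share 3 groups of 2 libraries. For Adgrl3, 28 genes passed the same value. The closest were Ier2 (r = 0.992), Morf4l1 (0.989), Egr1 (0.989), Gmcl1 (0.988) and Ndufb2 (0.986). Ier2 and Egr1 are immediate early genes; Egr1 averaged 16.1 CPM in clone 1 and 59.0 CPM in clone 2, against 68.6 CPM in WT.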

How the data were processed

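Total RNA depleted of ribosomal RNA was sequenced with a strand-specific kit, per the labels' protocols, and aligned with STAR 2.6.0c to GRCm38 after FastQC, per the submitters' processing notes. The files deposited by the authors hold unnormalised read counts for Ensembl genes in STAR's layout, with unstranded, forward and reverse columns; no source used here names the annotation release. Reverse-strand counts were used, as the kit marks strand that way; the opposite strand held 4.68% to 6.10% of counts. Rows naming no gene held 46.6% to 50.5% of reads and were left out. STAR drops reads with several hits.

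Symbols, positions and exon lengths came from GENCODE M21, which matched 54079 of 54146 identifiers. Genes were kept by filterByExpr (minimum count 10), scaled by TMM and fitted over all 6 libraries with 1 coefficient per group in edgeR 4.0.16 (R 4.3.3), leaving 3 residual degrees of freedom. A call is a Benjamini-Hochberg adjusted p below 0.05 over 13120 genes. SEs derive from the quasi-likelihood F. Replicates differed by more than sampling noise (chi-square per degree of freedom 12.5 to 20.1). The fit was also run on simulated data, and no value given here comes from that run.

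The members and lists were chosen with earlier results of these data known. Genes were named by rule: the 7 members, Mki67, called list genes (up to 6 per direction, 4 for other receptors), called neighbours of Tenm4 within 2 Mb, and the 5 genes most correlated with each called member. List genes named without a call were chosen after their values were seen. The lists of partners were shortened after the analysis by 2 genes that are not reported here. Alternatives were DESeq2 1.42.0, its size factors, no filter, a minimum count of 30, unstranded counts, the replicate number as a term, and each library left out.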

Additional observations from a re-analysis of the deposited data

Results flagged for a closer look

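Among the teneurins, latrophilins and listed partners, 3 genes changed by different amounts in the 2 clones. Each was called by a test of clone 2 against clone 1 in the fit across all genes. Of all genes tested, 3.54% were called in that comparison, 1.18% higher and 2.36% lower. Nothing is read from the count of 3, since members and lists were chosen with earlier results of these data known. Adgrl3 was higher in clone 2 by 1.61 ± 0.33 on the log2 scale (SE; edgeR quasi-likelihood, adjusted p = 0.0131) and Tenm4 by 1.04 ± 0.25 (adjusted p = 0.0340). Unc5b was lower in clone 2, by −0.96 ± 0.12 (adjusted p = 0.000349). The call of Unc5b held under all 12 alternatives. That of Adgrl3 was lost in DESeq2 and without any one of the 4 knockout libraries. That of Tenm4 was lost with unstranded counts and when clone 1 replicate 1, clone 1 replicate 2 or clone 2 replicate 1 was left out, and held without clone 2 replicate 2. With 2 libraries per group, single libraries could not be flagged as standing apart.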

How the results depend on the processing

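The count of genes called between the knockout mean and WT stayed within 1.5 times of 4561 under all 12 alternatives (3359 to 5022). Leaving out 1 library gave 2205 to 4348 calls for clone 1 against WT, 1668 to 4010 for clone 2 against WT and 156 to 1207 between clones (465 with all libraries), where no low-count filter gave 813. Between clones every left-out WT library raised the count, to 1202 and 1207, and every left-out knockout library lowered it. It also gave 1 to 2 called ligands and co-receptors, 2 to 6 intracellular partners and 2 to 7 lower neighbours of Tenm4; fewer libraries were fitted in each case, and a group left with 1 library was assumed to vary like the others. For single genes, 303 of 355 alternative values kept direction and side of the threshold or stayed within replicate spread, 30 lost a call, 9 gained one, 13 moved by more than the spread and 0 reversed. For list genes and neighbours not called with all libraries, the 355 values include only the alternatives that gained a call. The shares are therefore not taken over every alternative. Tenm4 ranged from −3.94 to −3.52 in the knockout mean.

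The differences between replicates 2 and 1 correlated at −0.27 between clones, 0.53 between clone 1 and WT and −0.29 between clone 2 and WT. Clone 1 and WT thus shared part of the difference between their replicates, and clone 2 tended the other way. The replicate numbers therefore did not mark 1 pairing of all 3 groups, and whether a batch was shared was not tested. With the replicate block, 4874 genes were called in the knockout mean, 4447 in clone 1, 3955 in clone 2 and 635 between clones, and Tenm4 differed by 1.04 between clones (adjusted p = 0.00303). Depth limits Tenm1, Tenm2, Tenm3 and Adgrl2, which held 0 to 22 counts in all.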
